A study of Arabidopsis thaliana with 4 samples.

Results

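The genes described here lie side by side on chromosome 3 of Arabidopsis thaliana, from AT3G16330 to AT3G19590, and as a run they gave higher array signals in the GR-REV line than in wild type. Members were the probe sets annotated to exactly 1 gene with a locus tag in that interval, ordered by tag. Where a gene had several such probe sets, the one with the highest mean over the 4 arrays was taken. This gave 166 genes, out of 13286 genes matched to a probe set of their own through the annotation used here. That annotation lists 1 gene for 13513 of the 22746 probe sets analysed and several genes for 503. A locus without a match can therefore still have a probe set on the array. The RefSeq gene table lists 391 loci in the interval, 366 of them protein coding, so the members sample the stretch rather than cover it. The interval was itself drawn from the signals in GR-REV and wild type, so the difference between the genotypes is given below as a description of each gene, and no test of it is used as evidence.

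The GR-REV line carries REVOLUTA with a glucocorticoid receptor (GR) domain joined to its amino terminus and with its microRNA site mutated, driven by the viral 35S promoter, which is active in most plant cells. The wild type was the Landsberg erecta (Ler) accession, and the title of the GR-REV dexamethasone array names its seedlings as transgenic Ler. Seedlings of both genotypes were grown for 10 days in liquid culture under 24 h light, at 100 seeds per flask, and were then treated for 1 h. One GR-REV flask and 1 wild type flask received 50 µg/ml dexamethasone in 0.1% ethanol, and 1 flask of each received 0.1% ethanol without it (mock). Each flask gave RNA of 100 mg of tissue to 1 Affymetrix ATH1 array, so each of the 4 groups was a single array of pooled seedlings. The 2 GR-REV arrays carry one treatment in their titles and protocols and the opposite one in their source names. The titles are followed here. Comparing both GR-REV arrays with both wild type arrays is untouched by that disagreement, whereas the pairing of arrays by treatment, and the sign of any dexamethasone difference within GR-REV, rest on the titles.

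REVOLUTA is a class III homeodomain-leucine zipper transcription factor that acts in the upper side of leaves, in meristems and in vascular tissue, and microRNAs normally restrict its transcript. A glucocorticoid receptor fusion is held in the cytoplasm until a steroid such as dexamethasone lets it enter the nucleus. Neighbouring genes on a plant chromosome mostly encode unrelated proteins, apart from tandem copies of one family. The members are accordingly a mixture: lectins, glycosyltransferases, F-box proteins, phosphatases, ribosomal and RNA-binding proteins, chromatin proteins and many genes of unknown role.

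Signals are MAS5 intensities in arbitrary units, scaled by the authors to a common trimmed mean on each array. Signals under a floor of 91.4, the 40th percentile of all signals, were set to it before taking log2, and 58.9%, 59.0%, 59.2% and 62.9% of probe sets lay above it on the GR-REV dexamethasone, GR-REV mock, wild type dexamethasone and wild type mock arrays. Neither REV nor any of 9 listed green-tissue marker genes had a probe set named in the annotation. Of 9 root markers only AT1G12560 did, and it lay under the floor on all 4 arrays, so the labelled tissue was not checked by markers here. In what follows, a pair of signals gives the dexamethasone flask and then the mock flask of that genotype, and a pair of log2 differences gives GR-REV minus wild type on the dexamethasone arrays and then on the mock arrays.

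Most members that gave a signal gave about double the wild type signal in GR-REV. Of the 166 members, 103 had a mean signal above the floor. Among these 103 the median log2 difference was 1.04 on the dexamethasone arrays, which is 2.05-fold, and 0.93 on the mock arrays, which is 1.90-fold. The lower and upper quartiles were 0.73 and 1.37 on the dexamethasone arrays and 0.52 and 1.33 on the mock arrays. For comparison, the 1393 other chromosome 3 genes with a mean signal above the floor had medians of 0.00 and -0.05. Of the 103, 7 passed only through their signals in GR-REV, with both wild type arrays at the floor, and 1, AT3G17110, passed only through its wild type mock signal, at 35.2 and 72.1 in GR-REV, against 79.9 and 202 in wild type.

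Over all 166 members, those at the floor included, the medians were 0.59 on the dexamethasone arrays and 0.43 on the mock arrays. The signals of both GR-REV arrays lay above those of both wild type arrays for 87 members and below them for 2. Over all 22746 probe sets analysed the same held for 13.8% above and 14.9% below. On the dexamethasone arrays 56 members were at least 2-fold higher in GR-REV and 1 was at least 2-fold lower, beside 3.18% and 2.07% of all probe sets. On the mock arrays 46 were at least 2-fold higher and 3 were lower, beside 2.36% and 2.95%. In 35 members the 2-fold mark was passed in both pairs, as it was by 1.48% of all probe sets. The mean of both log2 differences lay between 0.5 and 1.5, a band around doubling, in 76 members, and 6.24% of all probe sets fell there. It was above 1.5 in 13 members, between 0 and 0.5 in 14, below 0 in 10, and exactly 0 in the 53 members at the floor on every array. Calls in a limma fit for genotype, which the choice of the interval fixes in advance and which are no test of the members, stood at 19 of 104 higher and 0 lower in GR-REV, beside 1.28% and 0.492% of the probe sets fitted. They numbered 4 without the wild type dexamethasone array and 6 without the wild type mock array. Of the members called, AT3G16750, AT3G18310, AT3G18870 and AT3G19515 reached the fit only through their GR-REV signals, with both wild type signals under the floor. Because the interval was chosen on the genotype difference, nothing further is read from these counts and shares. The members' summed signal made up 1.05% and 1.08% of all signal in GR-REV, against 0.471% and 0.527% in wild type.

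**Figure D1:**
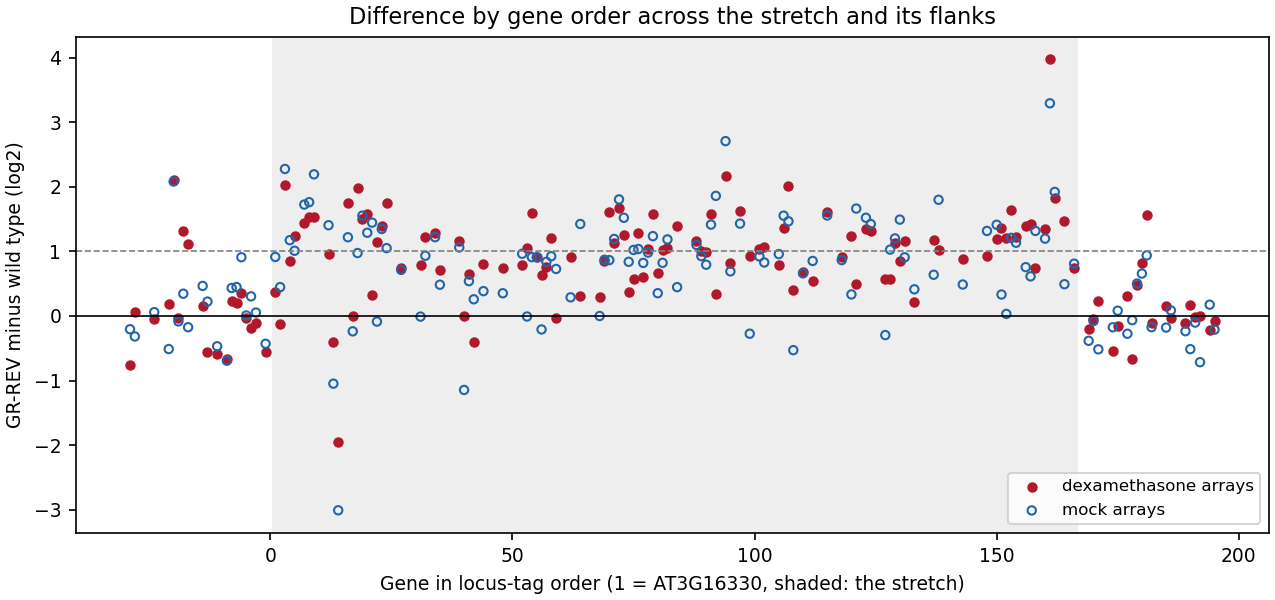
Log2 difference (GR-REV minus wild type, vertical axis) on the dexamethasone arrays (filled) and the mock arrays (open) of each gene with a mean signal above the floor, in order of locus tag along chromosome 3 (horizontal axis); the shaded stretch is flanked by up to 30 genes on each side, and the dashed line marks doubling. Members scatter around the dashed line from one end of the stretch to the other, and most flanking genes scatter around 0.

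**Figure D2:**
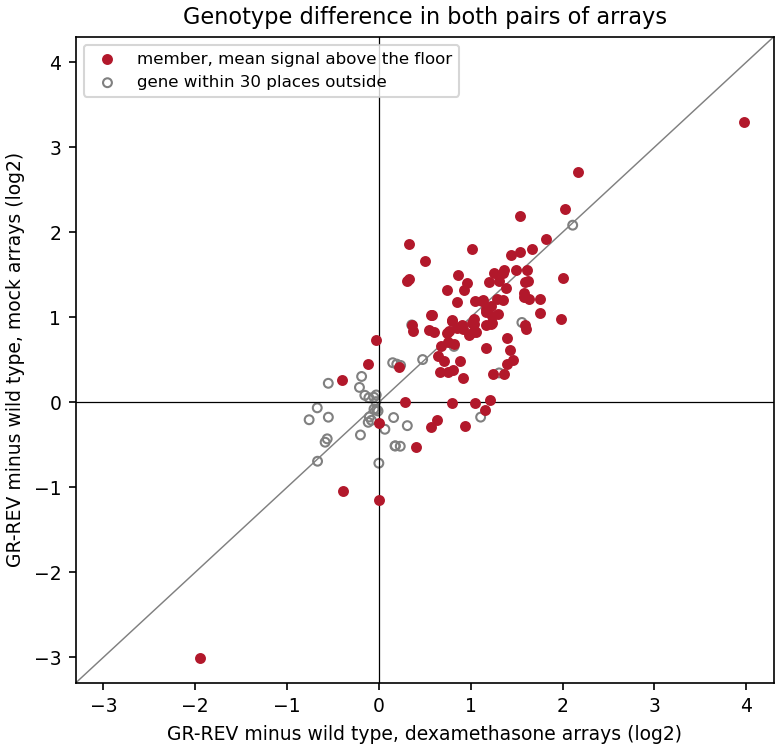
Log2 difference on the mock arrays (vertical axis) against the dexamethasone arrays (horizontal axis), GR-REV minus wild type, for the 103 members with a mean signal above the floor and for genes within 30 places outside the stretch. Most members lie around 1 on both axes, and the lowest point is AT3G16670.

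The difference was present along the whole stretch and varied in size. Counted by the first digits of the tag, members above the floor had median mean differences of 1.15 for AT3G16 (22 genes), 0.86 for AT3G17 (31 genes), 0.96 for AT3G18 (30 genes) and 1.06 for AT3G19 (20 genes). In consecutive bins of 12 such genes the median ran between 0.59, in the third bin from AT3G17030 to AT3G17380, and 1.17, in the bin before it. It also varied with signal strength. Members with a mean signal under 300 had a median of 0.71 (33 genes), those from 300 to 600 had 0.98 (25 genes), those from 600 to 1200 had 1.10 (19 genes) and those over 1200 had 1.12 (26 genes). Signals under the floor were raised to it, so a difference is a lower limit where only the wild type signals lay under the floor. Signal strength and the size of the difference also share the same 4 arrays. Whether dim probe sets understate the difference apart from the floor was not tested.

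At the left border the signals changed over several genes. Of the 10 annotated genes before the stretch, AT3G16190, AT3G16200 and AT3G16220 had both GR-REV signals above both wild type signals. Their mean differences were 0.34, 0.32 and 0.63. AT3G16175 and AT3G16310 had both GR-REV signals below, with mean differences of -0.68 and -0.50. The 5 annotated genes just before the stretch, the tRNA-processing gene TRZ4, AT3G16270, AT3G16280, AT3G16310 and CDC27a, a gene of the anaphase-promoting complex, had mean differences between -0.50 and 0.06. The first member, AT3G16330, gave 205 and 322 in GR-REV, against 159 and 171 in wild type, with differences of 0.37 and 0.91. Both of its GR-REV signals were above both wild type signals. The second, AT3G16350, a MYB-related transcription factor gene, gave 129 and 247 in GR-REV, against 139.9 and 181 in wild type, and there the groups overlapped. The third, AT3G16370, had one of the largest differences of all and is described with the lipid-related genes. JAL33 and JAL34, the jacalin-related lectin genes that follow it among the members, were each about double.

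At the right border the last member, BUB3.1 (AT3G19590), a spindle checkpoint gene of cell division, gave 526 and 253 in GR-REV, against 315 and 144 in wild type. Its GR-REV signal was the higher within each treatment, with differences of 0.74 and 0.81, but the wild type dexamethasone signal exceeded the GR-REV mock signal, so the groups overlapped. Before it, AT3G19540 gave 902 and 621 in GR-REV, against 327 and 441 in wild type, while AT3G19530 lay at the floor on every array. AT3G19550 passed the floor on 1 array, a wild type one, and its mean difference was -0.14. That difference was -1.17 with the floor at the 25th percentile and -0.64 with the floor value added. The 5 annotated genes just after the stretch, AT3G19610, AT3G19620, AT3G19630, AT3G19650 and AT3G19680, had mean differences between -0.29 and 0.00. AT3G19610 and AT3G19620, next to the border, were under the floor on all 4 arrays, so the floor sets their 0.00. Outside the borders, 3 of 30 genes before and 2 of 30 genes after had a mean difference of at least 0.5. Of these 30 genes on each side, 18 before and 17 after were above the floor on all 4 arrays. The largest was NAI2 (AT3G15950), a gene of endoplasmic reticulum bodies, at 3359 and 3377 in GR-REV, against 778 and 797 in wild type, a 4.28-fold difference over both pairs. The largest on the other side was bHLH121 (AT3G19860), a basic helix-loop-helix transcription factor gene, at 768 and 487 in GR-REV, against 261 and 254 in wild type, a 2.38-fold difference. NAI2 and bHLH121 were picked after their values were seen.

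Among genes of lipids and the plant surface, both that had a signal were among the 3 largest differences towards GR-REV. AT3G18280, of the lipid transfer protein type, gave 2841 and 4655 in GR-REV, against 629.6 and 712 in wild type, a 5.43-fold difference over both pairs. AT3G16370, a GDSL-type esterase/lipase gene, gave 15309 and 10473 in GR-REV, against 3766 and 2159 in wild type, a 4.44-fold difference. In both genes every GR-REV signal was more than double every wild type signal. AT3G18570, an oleosin-type gene, stayed at the floor on all 4 arrays.

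The 3 lectin genes among the members lie close together near the left border. They were the only members from a list of 10 nitrile specifier and lectin loci of the interval, and the other listed loci were not measured here. JAL33 (AT3G16450) gave 4323 and 5550.2 in GR-REV, against 2405 and 2458 in wild type, a 2.01-fold difference. JAL34 (AT3G16460) gave 6908 and 7391 in GR-REV, against 2939.7 and 3668 in wild type, a 2.18-fold difference. AT3G16530, a legume-type lectin gene, gave 7514 and 13954 in GR-REV, against 2589 and 4110.4 in wild type, a 3.14-fold difference. The groups did not overlap in any of the 3, although the GR-REV mock signal of AT3G16530 was almost double its GR-REV dexamethasone signal.

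Metabolic enzymes numbered 14 members, of which 3 stayed at the floor on all arrays. The 11 with a mean signal above the floor had a median mean difference of 1.01, and in 9 of them both GR-REV arrays lay above both wild type arrays. UGT88A1 (AT3G16520), a UDP-glycosyltransferase gene, gave 4899 and 6749 in GR-REV, against 1813 and 2039 in wild type, a 2.99-fold difference. AT3G17770, a dihydroxyacetone kinase gene, gave 1319 and 1573 in GR-REV, against 414 and 449.6 in wild type, a 3.34-fold difference. AT3G18680, a plastid UMP kinase gene, gave 4374 and 3580.1 in GR-REV, against 1429 and 1216 in wild type, with differences of 1.61 and 1.56. Each of these showed a wide gap between the genotypes. BGLU44 (AT3G18080), a beta-glucosidase gene, gave 13281 and 12285 in GR-REV, against 5046 and 9012 in wild type, where the wild type mock signal came closer to the GR-REV signals. The neighbours AT3G19000 and AT3G19010, both of the oxoglutarate-dependent oxygenase family, were 2.26-fold and 2.05-fold higher in GR-REV. AT3G17940, a galactose mutarotase-like gene, gave 2231 and 2566 in GR-REV, against 1091 and 1298 in wild type, close to a plain doubling in each pair. AT3G17365, a methyltransferase family gene, and AT3G18210, another oxygenase family gene, were 1.88-fold and 1.96-fold higher. BGLU43 (AT3G18070), the neighbour of BGLU44, stayed at the floor, as did the family 61 glycosyltransferase genes AT3G18170 and AT3G18180. The other pair of the 11, AT3G16700 and AT3G16990, did not separate the genotypes and are given with the exceptions.

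**Figure D3:**
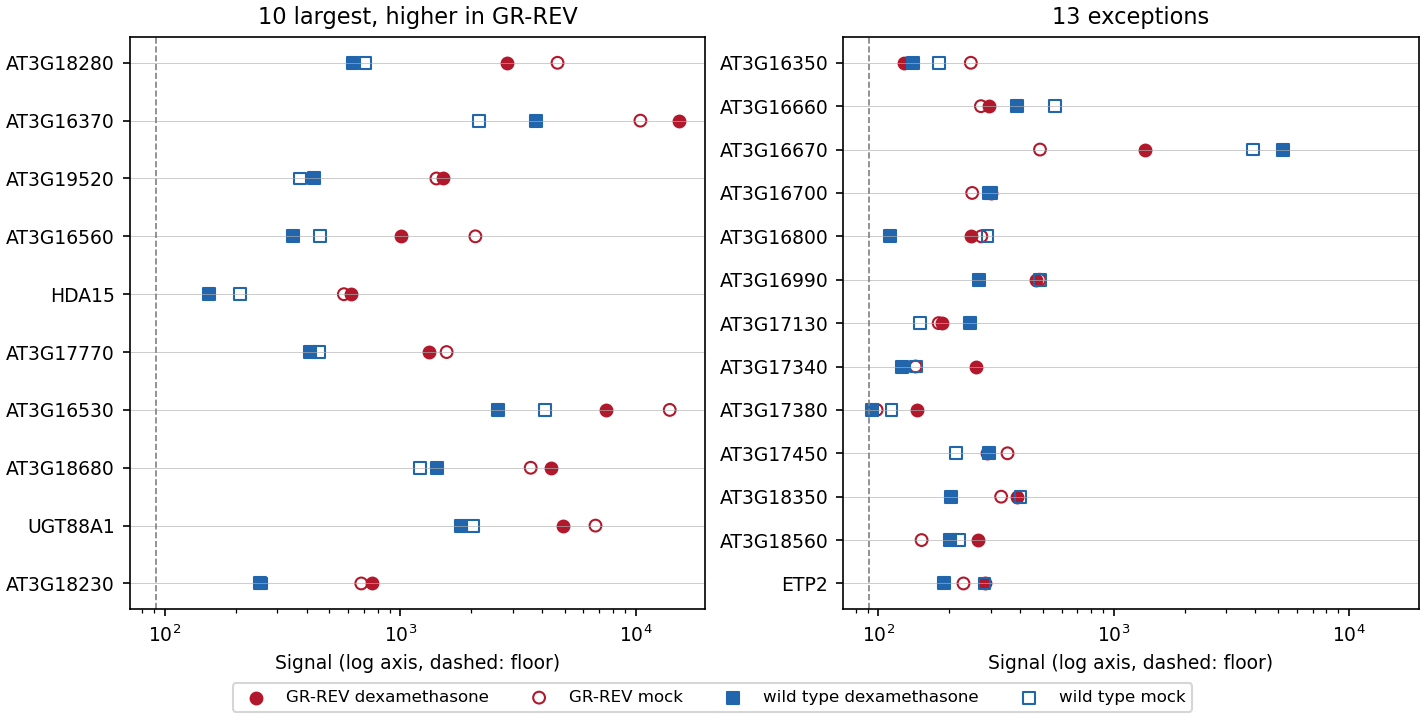
Signal on each of the 4 arrays (log axis, arbitrary units) for the 10 members with the largest differences towards GR-REV, among those above the floor on all arrays, and for the 13 exceptions. In the 10 genes both GR-REV points stand above both wild type points, whereas in 11 of the exceptions the points of the genotypes mix and in AT3G16660 and AT3G16670 the wild type points are on top.

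Genes of RNA handling and translation numbered 11, with 2 at the floor throughout. In all 9 with a mean signal above it, both GR-REV signals were above both wild type signals, with a median mean difference of 0.89. AT3G16840, a DEAD-box RNA helicase gene, gave 701 and 734 in GR-REV, against 268 and 288 in wild type, a 2.58-fold difference. AT3G16780, which encodes a large-subunit ribosomal protein, gave 3305 and 2814 in GR-REV, against 2634 and 1032 in wild type. Its GR-REV arrays were alike and its wild type arrays were far apart, so the difference was 0.33 and 1.45 in the 2 pairs. AT3G18600, another DEAD-box helicase gene, gave 1837 and 1245 in GR-REV, against 1147 and 787 in wild type, a 1.59-fold difference with a narrow gap. The CCR4-like nuclease gene AT3G18500 was 1.84-fold higher in GR-REV, and the ISY1-type splicing factor gene AT3G18790 was 1.73-fold higher. AT3G18760, a ribosomal protein S6 family gene, gave 1571 and 1159 in GR-REV, against 834 and 636 in wild type. The CCCH zinc finger genes AT3G18640 and AT3G19360 were 1.62-fold and 2.47-fold higher, and the pseudouridine synthase gene AT3G19440 was 2.10-fold higher. The 2 at the floor were NRPB9A (AT3G16980), an RNA polymerase subunit gene, and MPC (AT3G19350).

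Ubiquitin and proteolysis genes numbered 9, again with 2 at the floor throughout. The 7 others all had both GR-REV signals above both wild type signals, with a median mean difference of 1.17. UBC32 (AT3G17000), a ubiquitin-conjugating enzyme gene of the endoplasmic reticulum, gave 1314 and 1173 in GR-REV, against 561 and 614 in wild type, a 2.12-fold difference. AT3G18860, a WD-repeat gene of the ubiquitin pathway, gave 1789.9 and 1721 in GR-REV, against 701 and 599 in wild type, a 2.71-fold difference. The cysteine protease genes AT3G19390 and AT3G19400 were 2.68-fold and 2.26-fold higher in GR-REV. AT3G18940, a proteasome assembly chaperone family gene, gave 1008 and 891 in GR-REV, against 458 and 387 in wild type, a 2.25-fold difference. AT3G18930, a RING finger gene, had 2 probe sets, and on the brighter one it gave 215 and 391 in GR-REV, against 145 and 191 in wild type. PUB25 (AT3G19380), a U-box ubiquitin ligase gene, gave 266 and 129 in GR-REV, against 115 and 127 in wild type, so that only its dexamethasone signal in GR-REV stood clear.

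F-box proteins, the substrate receptors of ubiquitin ligases, were the largest family among members at the floor. Of 12 F-box genes, 8 were at the floor on all 4 arrays: AT3G16580, AT3G16880, AT3G17265, AT3G17280, AT3G17490, AT3G17620, AT3G18330 and AT3G18720. AT3G16740 gave 488 and 472 in GR-REV, against 124 and 239.9 in wild type. AT3G17710 gave 214 and 303 in GR-REV, against 119 and 166 in wild type. AT3G19470 gave 153 and 228 in GR-REV, against 52.8 and 50.4 in wild type, where both wild type signals were under the floor, so GR-REV was at least 2.04-fold higher. In these 3 the genotypes did not overlap, whereas the fourth, ETP2 (AT3G18910), whose product targets the ethylene signalling protein EIN2, overlapped.

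All 4 protein phosphatase 2C genes of the stretch had a mean signal above the floor, with a median mean difference of 0.83. AT3G16560 gave 1011 and 2084 in GR-REV, against 349.6 and 455 in wild type, a 3.64-fold difference, the largest of the family. AT3G17090 gave 2315 and 1982 in GR-REV, against 1032 and 949.6 in wild type, close to a plain doubling. AT3G17250 gave 341 and 307 in GR-REV, against 203 and 241 in wild type, a smaller gap without overlap, and AT3G16800 overlapped. Of 4 protein kinase genes 1 was at the floor and 3 were higher on both GR-REV arrays, AT3G17410 by 1.74-fold, AT3G17750 by 2.23-fold and AT3G19100 by 1.87-fold.

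Of 5 chromatin and DNA genes none was at the floor on all arrays, and 3 had a mean signal above it. HDA15 (AT3G18520), a histone deacetylase gene, gave 618 and 576 in GR-REV, against 153 and 208 in wild type, a 3.34-fold difference with a wide gap. BSH (AT3G17590), a gene for a SWI/SNF chromatin remodelling subunit, gave 608 and 474 in GR-REV, against 322 and 388 in wild type, and HON4 (AT3G18035), a linker histone family gene, gave 1189 and 976 in GR-REV, against 749 and 764 in wild type. Both were higher on both GR-REV arrays, by 1.52-fold and 1.42-fold. UNG (AT3G18630), a uracil DNA glycosylase gene, passed the floor on 1 array, that of GR-REV with dexamethasone.

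Most transcription factor genes gave no signal above the floor: 5 of 9 were at the floor on all arrays, among them IAA31 (AT3G17600), an auxin response repressor gene, and AGL103 (AT3G18650), a MADS-box gene. HAT3.1 (AT3G19510), a homeodomain gene with a PHD finger, gave 444 and 361 in GR-REV, against 174 and 157 in wild type, a 2.42-fold difference. AT3G16940, of the calmodulin-binding transcription activator family, gave 501 and 550.4 in GR-REV, against 298 and 335 in wild type, a 1.66-fold difference. HYH (AT3G17609), a bZIP gene that acts beside HY5 in light responses, gave 1137 and 1167 in GR-REV, against 921 and 435 in wild type. Its wild type arrays differed by more than its genotypes did on the dexamethasone arrays, with differences of 0.30 and 1.43.

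Among cytoskeleton and division genes, KINESIN-13A (AT3G16630), a microtubule motor gene, gave 2012 and 1969 in GR-REV, against 1037 and 743 in wild type, and AT3G18060, a WD-repeat gene for an actin-interacting protein, gave 4144 and 3923 in GR-REV, against 2007 and 1724 in wild type. Both were near doubling, at 2.27-fold and 2.17-fold. SWEET16 (AT3G16690), a vacuolar sugar transporter gene, gave 529 and 519.6 in GR-REV, against 157 and 223 in wild type, a 2.80-fold difference. ATSYTF (AT3G18370), a synaptotagmin-type membrane trafficking gene, gave 625 and 573 in GR-REV, against 304 and 302 in wild type, a 1.97-fold difference. AT3G17020, a universal stress protein gene, gave 10278 and 12486 in GR-REV, against 4215 and 5358 in wild type, a 2.38-fold difference. The nucleotide-sugar transporter family gene AT3G17430 gave 829.5 and 703 in GR-REV, against 357 and 370.3 in wild type, a 2.10-fold difference, and the reticulon family gene AT3G19460 was 2.03-fold higher. The calcium-binding EF-hand gene AT3G18430 and the leucine-rich repeat gene AT3G17920 were 1.93-fold and 1.64-fold higher. AT3G16760, a tetratricopeptide repeat gene, gave 838 and 813 in GR-REV, against 281 and 332 in wild type, a 2.70-fold difference. EMB2786 (AT3G17300), named for a requirement in embryos, was 1.84-fold higher, and the transposase-derived gene AT3G19120 gave 402 and 407 in GR-REV, against 199 and 117 in wild type, a 2.66-fold difference. In all of these genes both GR-REV signals were above both wild type signals. Others of the same classes overlapped: AT3G17680, of a kinase-interacting family, at 124 and 66.6 in GR-REV, against 102 and 86.6 in wild type, and CHX19 (AT3G17630), a cation/proton exchanger gene, at 46.0 and 106 in GR-REV, against 65.5 and 128 in wild type. By class, 3 of 5 cytoskeleton and division genes, 2 of 4 transport genes and 2 of 4 trafficking genes had both GR-REV signals above both wild type signals. The same held for 3 of 8 signalling genes and for 3 of 10 genes grouped as having other roles. AT3G18190, a cytosolic chaperonin subunit gene, was 2.19-fold higher, and AT3G18230, a PB1 domain gene, was 2.83-fold higher at 758 and 682 in GR-REV, against 252 and 256 in wild type.

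**Figure D4:**
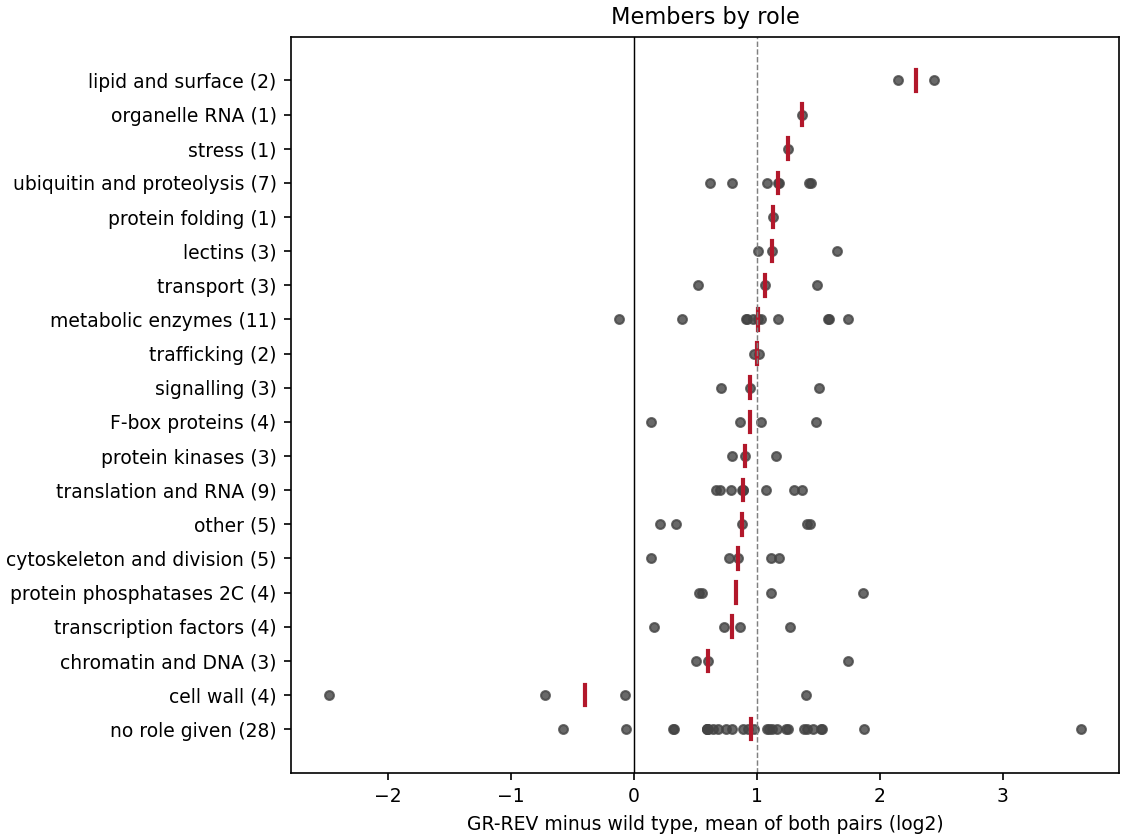
Mean log2 difference (GR-REV minus wild type) of each member above the floor, by role class, with 1 point per gene, a red bar at the class median and a dashed line at doubling. Most class medians lie between 0.5 and 1.5, that of the 2 lipid and surface genes lies above, and that of the 4 cell wall genes, -0.40, is the one below 0.

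No role is given here for 48 members, 17 of them at the floor on all arrays. They include the largest difference of the stretch in either direction. AT3G19515 gave 1439 and 897 in GR-REV, against 38.9 and 52.9 in wild type, with both wild type signals under the floor, so GR-REV was at least 12.4-fold higher. A second probe set of the same gene was under the floor on all 4 arrays, at 72.2 and 51.2 in GR-REV, against 23.6 and 3.84 in wild type. Its signals as deposited ran in the same direction, but so far under the floor they do not measure the size of the difference. AT3G19520, the next gene, gave 1521 and 1423 in GR-REV, against 430.1 and 375 in wild type, a 3.66-fold difference with a wide gap. Others had wild type signals at the floor on both arrays: AT3G16750, AT3G18310 and AT3G17950 were at least 2.88-fold, 2.89-fold and 2.66-fold higher in GR-REV. AT3G18870, which is not one of the 48 but a gene of the mTERF family of organelle gene regulators, did too and was at least 2.58-fold higher. Plain doublings were also common among the members with no role given, as in AT3G18050 at 2377 and 2343 in GR-REV, against 1166 and 1324 in wild type. AT3G17780 gave 1945 and 2275 in GR-REV, against 815 and 792 in wild type, AT3G17900 gave 1106 and 920.0 in GR-REV, against 451 and 448 in wild type, and AT3G19340 gave 1117 and 1205 in GR-REV, against 586 and 483 in wild type. In these 4 the genotypes lay well apart. Smaller gaps were seen in AT3G19030, at 4475 and 5502 in GR-REV, against 3845 and 4131 in wild type, and AT3G17800, at 3631 and 4251 in GR-REV, against 2814 and 2375 in wild type. These were 1.25-fold and 1.52-fold higher in GR-REV.

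Exceptions were 13 members that lay above the floor on all 4 arrays and yet showed a difference of 0 or lower in at least 1 pair. The one farthest from doubling was a cell wall gene. AT3G16670, of the Ole e 1 allergen and extensin family, gave 1358 and 486 in GR-REV, against 5238 and 3919 in wild type, with differences of -1.95 and -3.01 and a 5.58-fold lower signal in GR-REV. Its neighbour and relative AT3G16660 gave 294 and 273 in GR-REV, against 387 and 564 in wild type, a 1.65-fold lower signal. These were the 2 members whose GR-REV signals both lay below both wild type signals. AT3G16850, a polygalacturonase family gene nearby, was on the opposite side at 2593 and 1549.9 in GR-REV, against 767 and 748 in wild type.

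The 11 other exceptions overlapped between the genotypes. In AT3G16800, AT3G16990, AT3G17340, AT3G17380, AT3G18350, AT3G18560 and ETP2 the dexamethasone pair showed GR-REV higher and the mock pair did not. AT3G18350 gave 388 and 332 in GR-REV, against 203 and 402 in wild type, AT3G16990, a thiamin salvage enzyme gene, gave 467 and 485 in GR-REV, against 269 and 488 in wild type, and ETP2 gave 283 and 230.0 in GR-REV, against 191 and 282 in wild type. In these the wild type mock array was level with GR-REV or above it. AT3G16350, AT3G17130 and AT3G17450 ran the opposite way, with GR-REV higher in the mock pair alone. AT3G16700, a fumarylacetoacetate hydrolase family gene, gave 301 and 250.4 in GR-REV, against 300.2 and 295 in wild type, and was level across genotypes in the dexamethasone pair.

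Members near background were checked on the signals as deposited, before the floor. Of the 53 members above the floor on no array, 7 had both GR-REV signals above both wild type signals and 14 had both below. The share above was 13.2%, against 10.5% of all 7572 probe sets above the floor on no array, and the share below was 26.4%, against 26.6%. Their median signals were 10.2 and 20.2 in GR-REV, against 22.6 and 25.8 in wild type. No doubling was visible in these signals, which lie in the range where MAS5 values are mostly background. Of the 53, 36 have a role given here. Beside those named above they include IQD26 (AT3G16490), a calmodulin-binding protein gene, DNF (AT3G19140), a RING finger gene of flowering time, the LEA family gene AT3G17520, the autophagy-related gene AT3G18770, the VQ motif gene AT3G18360 and the extensin gene AT3G19020. One of the 53, the F-box gene AT3G18330, sits on a probe set of a kind that can cross-hybridize.

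No member passed the test for a dexamethasone difference common to both genotypes. Among the 103 members with a mean signal above the floor, the median dexamethasone minus mock difference was 0.04 in GR-REV and -0.04 in wild type, and the other chromosome 3 genes had 0.00 and -0.07. In a limma fit across 14034 probe sets with genotype as a term, 0 of the 104 members tested had an adjusted p under 0.05 for treatment, beside 0.0428% of all probe sets, and the members' lowest adjusted p was 0.192. At an unadjusted p under 0.05 there were 13 members, or 12.5%, against 11.5% of all probe sets tested. That fit has 1 residual degree of freedom, so it can miss a change. It takes the dexamethasone difference as the same in both genotypes, so a change in GR-REV alone was not tested.

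In 10 members dexamethasone and mock differed at least 2-fold in a genotype, each on 1 array against 1. Of all 166 members, 4 were higher and 1 lower in GR-REV, beside 1.22% and 1.21% of all probe sets, and 4 were higher and 2 lower in wild type, beside 0.554% and 1.68%. BUB3.1 was the one gene past the mark in both genotypes, at 1.06 in GR-REV and 1.13 in wild type. AT3G16670, the gene lowest in GR-REV, was higher with dexamethasone there by 1.48 and by 0.42 in wild type. The GR-REV dexamethasone signal of AT3G16560, the phosphatase gene, was below mock, at -1.04, and differed by -0.38 in wild type. AT3G18250, AT3G16780 and HYH were higher with dexamethasone in wild type, by 1.65, 1.35 and 1.08, where GR-REV showed 0.13, 0.23 and -0.04. AT3G16800 and AT3G17110 were lower with dexamethasone in wild type, at -1.38 and -1.15. AT3G19370 and PUB25 were higher in GR-REV, by 1.03 and 1.04.

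**Figure D5:**
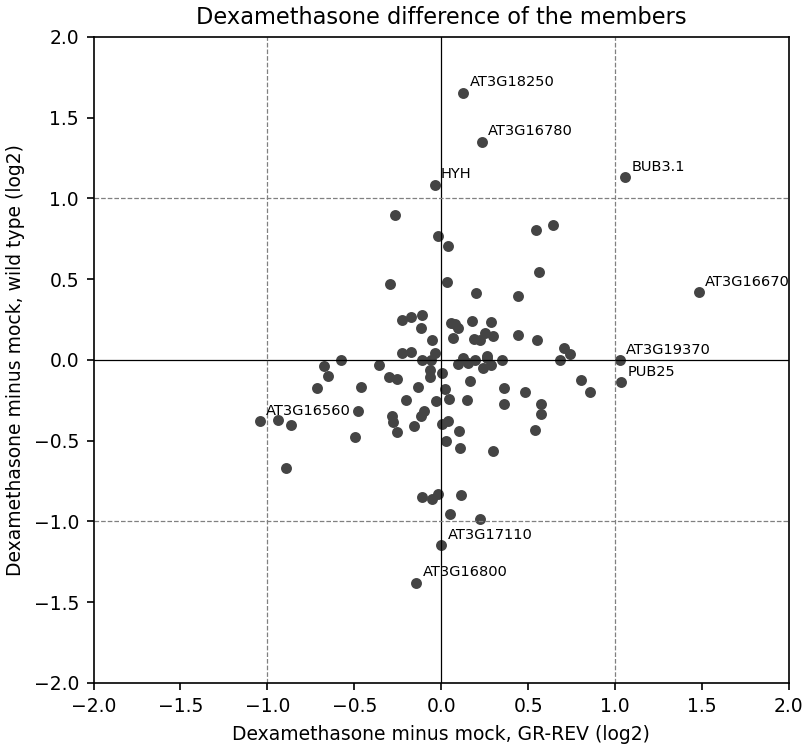
Dexamethasone minus mock difference (log2) in wild type (vertical axis) against GR-REV (horizontal axis) for members with a mean signal above the floor. Most points lie within 1 of 0 on both axes, dashed lines mark 2-fold, and the labelled genes are the 10 past it.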

How the data were processed

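RNA of 4 flasks was measured on 1 ATH1 array each. The deposited values are signal intensities on a linear scale, 1 per probe set, made by the authors with MAS5, per the submitters' processing notes. The MAS5 version is not given in the sources used here. On each array the 2% trimmed mean was about 500, so no further scaling was applied. After 64 control probe sets were left out, 22746 remained, and 13436 were matched to 1 gene through the platform annotation and the RefSeq table of assembly TAIR10.1, which gave names and gene order. Coordinates and sequences were not used here. Differences are of log2 intensities computed from the deposited signals, floored at the 40th percentile (91.4). Per the file headers, the 4 arrays ran in different fluidics modules, and the effects of module and of group cannot be told apart.

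Fits used limma 3.58.1 in R 4.3.3 (lmFit and eBayes with a trend, Benjamini-Hochberg adjustment) on the 14034 probe sets that passed the floor on 2 or more arrays. The genotype fit has 2 residual degrees of freedom and the treatment fit, with genotype as a term, has 1. With 1 array per group, p-values rest on the spread among these 4 arrays, which eBayes moderates across probe sets, and the number of arrays limits the precision. In the genotype fit the arrays of a genotype differ in treatment. Its residual spread is therefore the difference between a dexamethasone and a mock flask, not between replicate flasks. The named genes were the 5 inside and 5 outside each border, the 10 largest GR-REV minus wild type differences, by sign, among members above the floor on all arrays, the 13 exceptions, the 10 members past 2-fold with dexamethasone, and members of role lists. The members, lists and rules were chosen with earlier results of these data known, and the role classes were assigned with the values in view. Other floors, a floor value added, quantile normalization, division by the median, other models and leaving out each array were tried as alternatives. So were the treatments that the source names give for the GR-REV arrays.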

Additional observations from a re-analysis of the deposited data

How the results depend on the processing

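The median genotype difference over all 166 members, 0.59 (dexamethasone arrays) and 0.43 (mock arrays), depends on how many members sit at the floor. It was 0.75 on the dexamethasone arrays with the floor at the 25th percentile, 0.00 in both pairs at the 60th, 1.04 and 0.93 over members with a mean signal above the floor, and 0.60 on the mock arrays after division by the median, which moved all probe sets above the floor to 0.11 there. With the GR-REV arrays paired by the treatments of their source names, the medians over all 166 members were 0.54 (dexamethasone arrays) and 0.45 (mock arrays). The median dexamethasone difference was 0.00 in both genotypes. It was -0.0217 in wild type with the floor at the 25th percentile, 0.0208 in GR-REV and -0.0795 in wild type with the floor value added, and 0.0433 in GR-REV and -0.0381 in wild type over members with a mean signal above the floor.

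The members were chosen on the genotype contrast, so limma calls in it are no evidence about them and their counts show only what the settings do. The fit gave 19 of 104 members as higher and 0 as lower, beside 1.28% and 0.492% of all probe sets tested. The calls numbered 35 (34 higher, 1 lower) with the floor value added, 33 (32 higher, 1 lower) after division by the median, 57 (56 higher, 1 lower) with treatment as a term, which blocks the arrays by treatment, and 0 with all probe sets tested, where many values tie at the floor. Leaving out 1 array gave between 4 and 18 calls, with 4 without the wild type dexamethasone array and 6 without the wild type mock array. Treatment calls, 0 as reported, were 4 (all higher) after division by the median and 1 (lower) after quantile normalization. They stayed at 0 with the treatments of the source names. Among 180 recomputed gene differences of 36 genes, 165 stayed within the spread, 15 moved and 0 reversed in a called difference. One changed sign within the spread: AT3G16800, at 0.53, was at -0.04 with the floor at the 60th percentile.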
